A study of Mus musculus with 4 samples.

Results

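The 10 mouse transcripts described here encode antioxidant enzymes that remove superoxide, hydrogen peroxide or reactive quinones, degrade heme, make glutathione or repair peroxide-removing enzymes. They were chosen by RefSeq identifier, as NM_010442 (Hmox1), NM_008706 (Nqo1), NM_008129 (Gclm), NM_010295 (Gclc), NM_029688 (Srxn1), NM_011434 (Sod1), NM_013671 (Sod2), NM_011435 (Sod3), NM_009804 (Cat) and NM_008160 (Gpx1). All 10 were on the array, out of 33227 unique identifiers. They were measured by 12 of its 39429 probes, with 2 probes each for Hmox1 and Cat.

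RNA was taken from 4 populations of differentiating mouse embryonic stem cells and hybridized to 1-colour Agilent expression arrays. Flk1+ MPCs were mesodermal precursor cells sorted at day 4.5. PCBs were cardioblasts, sorted as PDGFRα+Flk1- cells, at day 5.5 after culture with CsAYTE, a mixture of Trolox, a water-soluble antioxidant related to vitamin E, with Cyclosporin A, Y27632 (against ROCK) and EW7197 (against ALK5). Their counterparts of the same day, sfPCBs, formed spontaneously without CsAYTE, and DMSO was the control vehicle. M+CMs were αMHC+ cardiomyocytes at day 10.5, recognised in the study's reporter line by GFP under the αMHC promoter, derived from PCBs in the study, although their label does not say whether CsAYTE was used. Cardioblasts and cardiomyocytes were raised by plating sorted Flk1+ MPCs on OP9 stromal feeder cells or on gelatin, while the Flk1+ MPCs themselves came from gelatin dishes without feeders. Which of these surfaces the arrayed cells came from, and how feeder cells were removed, is not stated for the arrays in the sources used here. The paper does report that mouse PCBs did not arise in cultures without feeder cells. Differences of sfPCBs from Flk1+ MPCs therefore hold the day and the culture together, those of PCBs hold CsAYTE as well, and these cannot be told apart within either comparison. Likewise CsAYTE holds 4 agents, so that the effect of Trolox cannot be told apart from that of the other agents.

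Each population had a single array, so that no replicate and no test between populations was available. The error given beside a log2 ratio comes from the scanner software's own signal error, covers the spot and its background only, and leaves out the spread between cultures. The 4 arrays lay on 1 slide, held 43020 spots each that were not controls, and had between 73.3% and 76.2% of these spots well above background. No spot was saturated. Levels are given as scaled signals, the background-subtracted signal after each array was brought to a common 75th percentile. A level cannot be set against that of another transcript, because probes differ in brightness. Fewer cells of a type and less RNA per cell cannot be told apart in such bulk samples.

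The labels were checked against marker genes. Scaled signals of Mesp1, a transcription factor of early cardiac mesoderm, were 42204 in Flk1+ MPCs and 178.5 in sfPCBs, and were not well above background in PCBs and M+CMs. The receptor Kdr (Flk1) had scaled signals of 24858, 5511, 2363 and 3993 in Flk1+ MPCs, sfPCBs, PCBs and M+CMs, but its probes disagreed in size, with log2 ratios against Flk1+ MPCs from −3.59 to −0.76 in sfPCBs and from −6.16 to −0.63 in PCBs. Pdgfra, which encodes the receptor by which cardioblasts were sorted, had 7237, 3647, 9136 and 918.3 in the same order. The summed scaled signal of 6 cardiomyocyte markers was 7370 in Flk1+ MPCs, 5010 in sfPCBs and 517372 in PCBs, and 1199955 in M+CMs. In sfPCBs the single cardiomyocyte markers went both ways against Flk1+ MPCs, with Tnnt2 21.1-fold and Myh7 4.30-fold higher, and Myl7 10.4-fold and Actn2 3.54-fold lower. The sfPCB array held the highest sums of endothelial markers (2861 against 227.9 to 405.4 elsewhere) and of blood markers (3569 against 201.4 to 2663 elsewhere).

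Antioxidant defence works in layers. Superoxide dismutases turn superoxide into hydrogen peroxide, in the cytosol (Sod1), in mitochondria (Sod2) and outside the cell (Sod3), and catalase and glutathione peroxidases then break the peroxide down. A further layer is switched on by the transcription factor NRF2 (Nfe2l2), which KEAP1 holds in check until oxidants or electrophiles reach it. NRF2 pairs with small MAF proteins on a DNA sequence called the antioxidant response element. Hmox1, Nqo1, Gclm, Gclc and Srxn1 are widely used as readouts of NRF2. In cardiac muscle, mitochondrial respiration is a major source of superoxide.

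To show where such an element lies in these genes, the RefSeq promoter windows (250 bases before to 50 after the start, build GRCm38.p6) were searched on both strands for its core, TGACNNNGC. The windows of Gclm and Sod1 are shown because each holds the core before the start. That of Nqo1, the NRF2 readout with the widest range, is shown as a window without the core. Sequence outside the windows was not searched, so a window without the core does not mean a gene without the element. The 250 bases before the start are given 5′ to 3′ along the gene's strand, with capitals for the core, which here lies on the opposite strand and so appears reversed.
Gclm (chr3:122245307-122245556, plus strand): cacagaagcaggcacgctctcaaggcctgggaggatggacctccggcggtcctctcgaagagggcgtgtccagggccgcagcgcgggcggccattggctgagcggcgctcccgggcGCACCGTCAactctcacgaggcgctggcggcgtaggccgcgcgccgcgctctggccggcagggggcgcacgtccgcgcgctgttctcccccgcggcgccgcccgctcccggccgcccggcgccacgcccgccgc
Sod1 (chr16:90220512-90220761, plus strand): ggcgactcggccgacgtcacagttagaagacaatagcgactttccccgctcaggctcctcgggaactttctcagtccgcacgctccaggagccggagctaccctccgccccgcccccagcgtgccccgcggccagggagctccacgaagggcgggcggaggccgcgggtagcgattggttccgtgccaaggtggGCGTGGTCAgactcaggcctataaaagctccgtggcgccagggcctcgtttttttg
Nqo1 (chr8:107403206-107403455, minus strand): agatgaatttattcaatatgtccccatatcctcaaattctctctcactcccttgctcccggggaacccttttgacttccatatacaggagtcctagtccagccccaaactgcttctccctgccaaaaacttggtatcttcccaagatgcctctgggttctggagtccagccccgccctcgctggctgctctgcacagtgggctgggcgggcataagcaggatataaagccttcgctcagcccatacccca

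The core lay 134 bases before the start in Gclm and 56 before it in Sod1, and another match lay 29 bases after the start of Srxn1. Promoter windows were matched for 7 of the 10 members, and 3 of these 7 held the core. Nqo1, Sod2, Cat and Gpx1 held none in their windows. Hmox1, Gclc and Sod3 were not matched to a window. Of all 32851 promoter windows of this length, 12.4% held the core, so a match is common and is given as a description only. The number of CG pairs in the 250 bases before the start ran from 5 in Nqo1 to 41 in Gclm. Among 54 further genes of the pathway described later, 48 had a window and 12 of these held the core. The matched letters with 10 bases on each side are given along the strand that reads TGACNNNGC. They cover the 3 members and the pathway genes Maff, Mafk, Sesn2, Mgst1, Blvra and Me1, whose ratios are named below. Nfe2l2, G6pdx and Pgd, also named below, held the core but are not shown. It lay 240 bases before the start in Nfe2l2, 57 before it in G6pdx and 4 after it in Pgd. In Me1 the core overlaps all of another common motif, the AP-1 site TGACTCA.
Gclm (chr3:122245413-122245441): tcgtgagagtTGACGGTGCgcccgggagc
Sod1 (chr16:90220696-90220724): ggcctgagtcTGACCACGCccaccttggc
Srxn1 (chr2:152105542-152105570): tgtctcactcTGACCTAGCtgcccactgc
Maff (chr15:79346499-79346527): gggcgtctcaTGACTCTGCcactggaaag
Mafk (chr5:139791513-139791541): tccccagtacTGACACCGCttccgggatc
Sesn2 (chr4:132510474-132510502): cgcagcgggcTGACAGAGCcgggcgagcg
Mgst1 (chr6:138140461-138140489): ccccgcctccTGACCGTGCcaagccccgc
Blvra (chr2:127070598-127070626): ggcggagcctTGACCGAGCaattcccgtg
Me1 (chr9:86695902-86695930): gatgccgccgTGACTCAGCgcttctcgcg

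The main question was whether the transcripts differed between PCBs, formed with CsAYTE and its antioxidant, and sfPCBs, formed without it on the same day. None of the 10 members differed by 2-fold or more. Over all 30118 probes compared, 13.5% did, 6.13% higher in PCBs and 7.36% lower. The members lay on both sides, with 4 higher and 6 lower in PCBs, and log2 ratios from −0.68 (Hmox1) to 0.61 (Gclc). Their median log2 ratio was −0.12, against 0.03 over all probes. Their median absolute log2 ratio was 0.43, against 0.29 over all probes. In 5 of the 10 the ratio was at least 2 errors from 0, as it was in 32.2% of all probes: Hmox1, Sod3 and Gpx1 were lower in PCBs, and Gclc and Sod2 were higher. Sod1 and Cat, with log2 ratios of 0.03 and −0.05, changed sign under alternatives, Sod1 to −0.13 without scaling, and Cat to 0.11 with normexp correction and quantile normalization together. The same arrays differed in cell type markers, with summed signals in PCBs and sfPCBs of 517372 and 5010 for cardiomyocytes, 227.9 and 2861 for endothelium, 2663 and 3569 for blood, and 144739 and 269283 for stromal and feeder cells, whose part in these ratios was not tested. At least 2-fold lower in PCBs were 3 of 3 endothelial, 3 of 4 blood and 5 of 8 stromal and feeder cell markers. The blood sum was mostly Hbb-bh1, with a log2 ratio of −0.14, and the stromal and feeder cell sum mostly Col1a2, with −0.68. The largest stromal differences were in Postn, at least 828.6-fold lower in PCBs, and Lum, 290.8-fold lower.

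**Figure D1:**
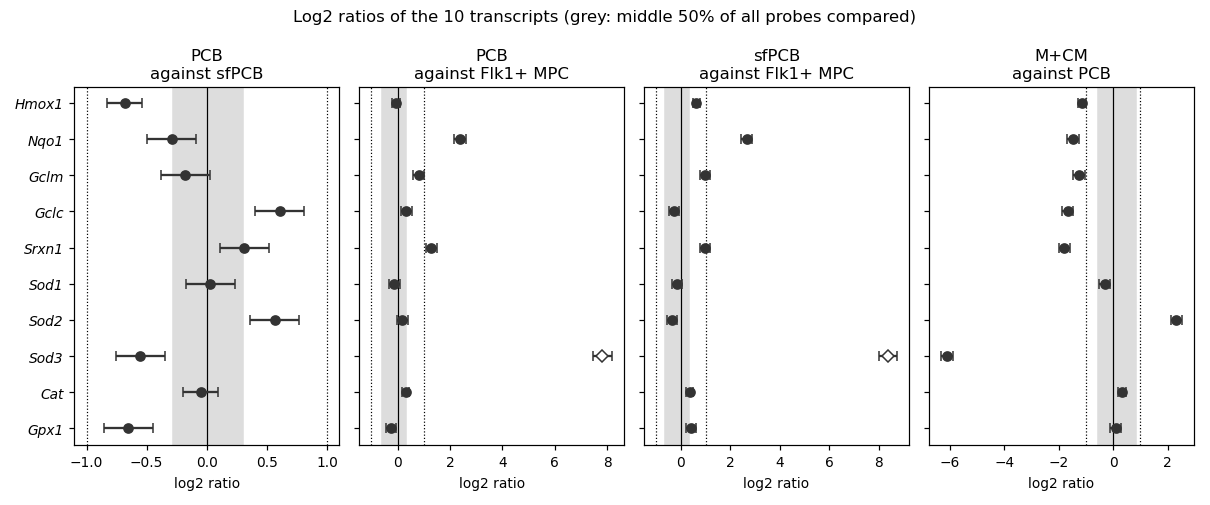
Log2 ratios of the 10 transcripts in the 4 comparisons, with the scanner software's error as bars, dotted lines at 2-fold and grey bands for the middle 50% of all probes compared. Between PCBs and sfPCBs all 10 lie within the 2-fold lines, whereas 6 lie below the lower line for M+CMs against PCBs. Open diamonds mark ratios where 1 array was not well above background.

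Hmox1, heme oxygenase 1, degrades heme to biliverdin, carbon monoxide and iron. Its scaled signal was 1996 in Flk1+ MPCs, 3069 in sfPCBs and 1913 in PCBs, against 869.1 in M+CMs. It was highest in sfPCBs and lowest in M+CMs, and the precursors and PCBs lay within 2 errors of each other, in an order that turned without scaling. The log2 ratio of PCBs against sfPCBs was −0.68 (error 0.14), the lowest among the members, and both of its probes were below 0, at −0.84 and −0.52. The log2 ratio of M+CMs against PCBs was −1.14 (error 0.14), at −1.37 and −0.91 by probe, so that the dimmer probe was short of 2-fold.

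Nqo1, NAD(P)H quinone dehydrogenase 1, reduces quinones in a single step that avoids the reactive semiquinone. Its scaled signal was 49.6 in Flk1+ MPCs, 315.0 in sfPCBs and 257.1 in PCBs, and 91.7 in M+CMs. The day 5.5 populations lay together, within 2 errors of each other, and above both the earlier and the later one. Against Flk1+ MPCs it was 5.18-fold higher in PCBs and 6.35-fold higher in sfPCBs. These folds fell with an offset of 50 added to all signals, to log2 ratios of 1.62 and 1.87 from 2.37 and 2.67, and to 1.37 and 1.71 with normexp correction and quantile normalization. The log2 ratio of M+CMs against PCBs was −1.49 (error 0.21).

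Gclm and Gclc are the modifier and catalytic subunits of glutamate-cysteine ligase, the rate-limiting enzyme of glutathione synthesis. The scaled signal of Gclm was 340.6 in Flk1+ MPCs, 675.6 in sfPCBs and 596.5 in PCBs, against 249.5 in M+CMs. That of Gclc was 5783 in Flk1+ MPCs, 4795 in sfPCBs and 7303 in PCBs, and 2284 in M+CMs. The subunits thus differed in their order over the populations: Gclm was high in both day 5.5 populations, whereas Gclc was highest in PCBs. Flk1+ MPCs and sfPCBs were within 2 errors in Gclc, with a log2 ratio of −0.27 that became 0.07 without scaling. Between PCBs and sfPCBs the log2 ratio was −0.18 for Gclm and 0.61 for Gclc (error 0.20 each). Both were lowest in M+CMs, with log2 ratios against PCBs of −1.26 for Gclm and −1.68 for Gclc.

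Srxn1, sulfiredoxin, restores peroxiredoxins whose active cysteine was overoxidized by peroxide. Its scaled signal was 1730 in Flk1+ MPCs, 3389 in sfPCBs and 4203 in PCBs, against 1211 in M+CMs. As with Nqo1 and Gclm, the day 5.5 populations were the highest and lay within 2 errors of each other. Its log2 ratio against Flk1+ MPCs was 1.28 in PCBs and 0.97 in sfPCBs (error 0.20 each), the latter 1.96-fold and just short of the 2-fold line, as was Gclm at 1.98-fold. Without scaling these became log2 ratios of 1.31 for Srxn1 and 1.33 for Gclm, past the line. M+CMs stood 3.47-fold below PCBs.

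**Figure D2:**
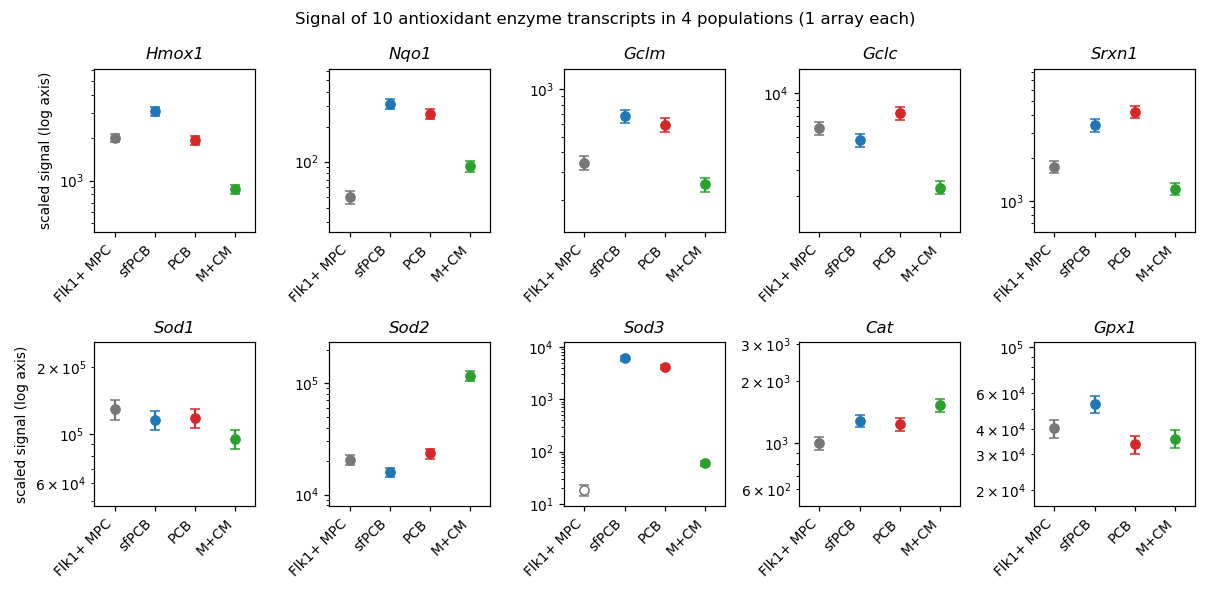
Scaled signal of each of the 10 transcripts (log axis, a separate range in each panel) in the 4 populations, 1 array each, with the scanner software's error as bars. Hmox1, Nqo1, Gclm, Sod3 and Gpx1 are highest in sfPCBs, Gclc and Srxn1 in PCBs, and Sod2 stands at 116216 in M+CMs. Of these, only Hmox1, Sod3 and Sod2 have a highest population more than 2 errors above the next. The open symbol is the Flk1+ MPC signal of Sod3, which was not well above background.

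The superoxide dismutases behaved in 3 different ways. Sod1, the cytosolic copper and zinc enzyme, had scaled signals of 129093 in Flk1+ MPCs, 115884 in sfPCBs and 118049 in PCBs, and 95191 in M+CMs. This was the flattest member, with a 1.36-fold range over the populations and every neighbour in the order within 2 errors. The place of Flk1+ MPCs as highest did not hold without scaling, with quantile normalization or with normexp correction. Sod2, the mitochondrial manganese enzyme, had 20559 in Flk1+ MPCs, 15831 in sfPCBs and 23397 in PCBs, against 116216 in M+CMs. No other member stood 2-fold or more above its PCB level in M+CMs, where Sod2 was 4.97-fold higher, a log2 ratio of 2.31 (error 0.20). Its log2 ratio of PCBs against sfPCBs was 0.56 (error 0.20), and PCBs and Flk1+ MPCs lay within 2 errors of each other.

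Sod3, the secreted extracellular enzyme, had by far the widest range. Its scaled signal was 18.4 in Flk1+ MPCs, where it was not well above background, 6080 in sfPCBs and 4138 in PCBs, and 60.1 in M+CMs. It was therefore high on both day 5.5 arrays and low on the others. Against Flk1+ MPCs it was 225.4-fold higher in PCBs and 331.2-fold higher in sfPCBs, and M+CMs stood 68.8-fold below PCBs. The folds against Flk1+ MPCs rest on a signal not well above background and have no firm size. An offset of 50 brought the log2 ratios against Flk1+ MPCs to 5.94 in PCBs and 6.49 in sfPCBs, from 7.82 and 8.37, and normexp correction with quantile normalization to 5.50 and 6.19. For M+CMs against PCBs the log2 ratio of −6.11 became −5.25 and −4.997 under the same alternatives. Between PCBs and sfPCBs the log2 ratio was −0.56 (error 0.20). All pairs of neighbours in its order were more than 2 errors apart.

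The Sod3 signal moved with some markers of stromal and feeder cells and not with others, and the part of such cells in it was not tested. PCBs had been sorted for PDGFRα, and how far the sort removed feeder cells was not measured here. The summed scaled signal of 8 such markers (Col1a1, Col1a2, Lum, Dcn, Postn, Thy1, Lox and Cxcl12) was 3173 in Flk1+ MPCs, 269283 in sfPCBs and 144739 in PCBs, against 21472 in M+CMs. Of the 8, 4 were not well above background in Flk1+ MPCs, 0 in sfPCBs and 1 in PCBs, and 1 in M+CMs. Col1a1, the collagen chain made by fibroblasts, had scaled signals of 1110, 58341, 28386 and 860.0 in the same order. Its log2 ratio of PCBs against sfPCBs was −1.04, and that of Col1a2 was −0.68, on the same side as that of Sod3. Not all of the markers followed: Lum, Dcn and Postn, which encode matrix proteins, were high in sfPCBs only (8782, 3794 and 12884) and had 30.2, 123.8 and 13.2 in PCBs, and Thy1 was highest in Flk1+ MPCs at 1065.

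The 3 transcripts whose levels, centred on their own mean, lay nearest to those of Sod3 over the 4 populations were Isg15, Sncg and Oasl2. They were sought among 14931 transcripts with a gene symbol that were detected on all 4 arrays. Sod3 itself did not meet that condition, and neither did the stromal markers Lox, Lum, Dcn and Postn, which were thus not candidates. Isg15, a ubiquitin-like protein, was the nearest, at a Euclidean distance of 0.07 on the log2 scale, with scaled signals of 140.5 in Flk1+ MPCs, 47405 in sfPCBs and 33163 in PCBs, against 449.3 in M+CMs. Sncg, a synuclein, lay at a distance of 0.54 and Oasl2, an oligoadenylate synthetase-like protein, at 0.56. All 3 were high on the day 5.5 arrays and low on the others, as Sod3 was. The likeness rests on 4 points, of which the Flk1+ MPC signal of Sod3 was not well above background, so the distances and their order are a description without a firm size.

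**Figure D3:**
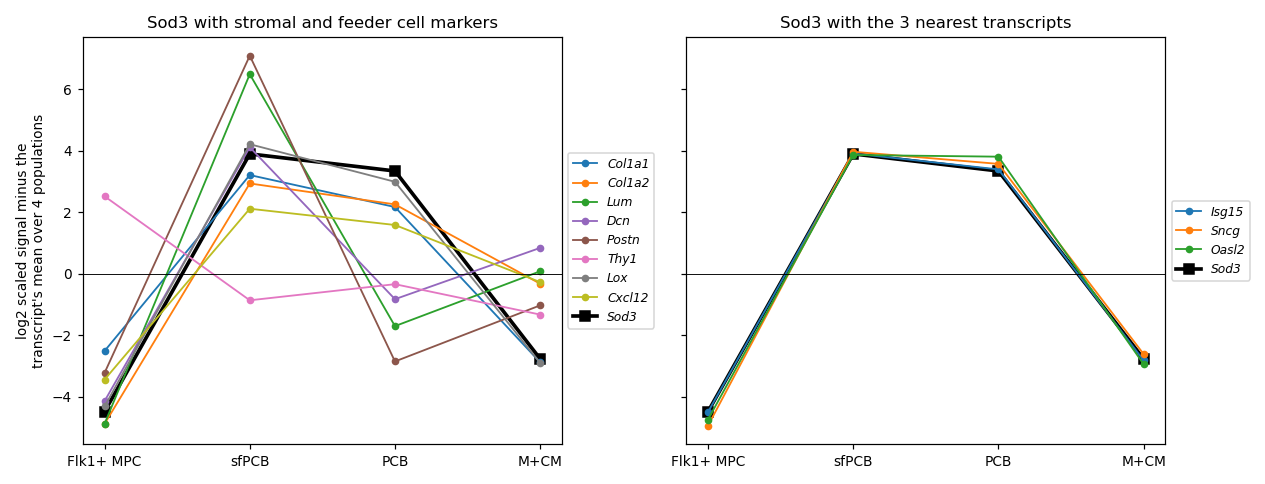
Log2 scaled signal of Sod3 (black squares), with each transcript's mean over the 4 populations taken away, beside 8 stromal and feeder cell markers (left) and the 3 nearest transcripts (right). Sod3 lies close to Isg15 at every population, and follows Col1a1 and Lox, whereas Lum, Dcn and Postn drop between sfPCBs and PCBs.

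The members that remove hydrogen peroxide, Cat and Gpx1, had narrow ranges, as Sod1 did, for Cat on the mean of its probes. Cat, catalase, breaks down hydrogen peroxide in peroxisomes. Its scaled signal was 1001 in Flk1+ MPCs, 1285 in sfPCBs and 1239 in PCBs, and 1534 in M+CMs, a 1.53-fold range. Its probes disagreed for M+CMs against PCBs: the brighter went from 2643 to 5363, a log2 ratio of 1.02, and the dimmer from 581.2 to 438.5, a log2 ratio of −0.41, so the direction of Cat in M+CMs is uncertain. Between PCBs and sfPCBs its log2 ratio was −0.05 (error 0.14). Gpx1, the cytosolic glutathione peroxidase, had scaled signals of 40131 in Flk1+ MPCs, 52811 in sfPCBs and 33599 in PCBs, against 35785 in M+CMs. Its log2 ratio of PCBs against sfPCBs was −0.65 (error 0.20), close to that of Hmox1, and it had a 1.57-fold range over the populations. It was highest in sfPCBs and lowest in PCBs, and each neighbour in the order lay within 2 errors. Without scaling M+CMs were the lowest, with a log2 ratio of −0.12 against PCBs.

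Set against Flk1+ MPCs, 3 of the 10 members were at least 2-fold higher in PCBs (Nqo1, Srxn1 and Sod3) and 0 were lower, where 12.8% of 30811 probes were higher and 12.1% lower. In sfPCBs 2 were higher (Nqo1 and Sod3), and 0 lower, where 13.1% of 30689 probes were higher and 12.6% lower. The median log2 ratio of the members was 0.32 in PCBs and 0.51 in sfPCBs, against −0.20 and −0.22 over all probes. These comparisons share the Flk1+ MPC array, so that a low signal on that array enters both, and the PCB array likewise enters the comparisons with sfPCBs, Flk1+ MPCs and M+CMs. The sum of the stromal and feeder cell markers was also higher on both day 5.5 arrays (269283 and 144739 against 3173), and its part in the ratios of Nqo1, Srxn1 and Gclm was not tested. Of the members, 5 were highest in sfPCBs and 2 in PCBs, 2 in M+CMs and 1 in Flk1+ MPCs. Only in Hmox1, Sod2 and Sod3 was the highest population more than 2 errors above the next. The same count was not made over all probes, so no lean of the members is read from it.

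Of the 4 comparisons made, that of M+CMs against PCBs had the most members past 2-fold. The cardiomyocytes were at least 2-fold lower in 6 of the 10: Hmox1, Nqo1, Gclm, Gclc, Srxn1 and Sod3. Over all 31132 probes compared 15.4% were that much lower and 20.5% higher. All 5 NRF2 readouts were among the 6, with log2 ratios from −1.14 to −1.80, and Sod2 was the member past 2-fold on the other side. The median log2 ratio of the members was −1.20, against 0.15 over all probes. The summed signal of the stromal and feeder cell markers was also lower in M+CMs (21472 against 144739). Singly these markers split, with 4 of 8 at least 2-fold lower and 3 at least 2-fold higher. The sum of the cardiomyocyte markers was higher in M+CMs, and the part of either group in these ratios was not tested.

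The wider pathway was read from 6 lists, of which all 54 genes were on the array. Between PCBs and sfPCBs 53 of them could be compared, of which 1 was at least 2-fold higher in PCBs and 4 were lower, with a median log2 ratio of 0.05. Over all probes 13.5% were past 2-fold, 6.13% higher and 7.36% lower, with a median of 0.03. Against Flk1+ MPCs 6 of 52 were higher in PCBs and 4 lower, and 9 of 53 were higher in sfPCBs and 1 lower, where between 12.1% and 13.1% of all probes were past the line in each direction. For M+CMs against PCBs 8 of 52 were higher and 10 lower, beside 20.5% and 15.4% of all probes.

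Among the 7 genes that control NRF2, 1 was at least 2-fold lower in PCBs than in sfPCBs and 0 were higher. Nfe2l2, NRF2 itself, had scaled signals of 7751 in Flk1+ MPCs, 6900 in sfPCBs and 7557 in PCBs, and 6955 in M+CMs, and was thus nearly level across the populations. Keap1, its inhibitor and like Nfe2l2 named after its values were seen, had 3201, 4547, 4978 and 5871 in the same order, with a log2 ratio of 0.13 (error 0.20) between PCBs and sfPCBs. The gene past 2-fold was Maff, a small MAF protein, at 5642, 6616, 3251 and 1534, a log2 ratio of −1.03. Sqstm1, the autophagy receptor p62 that binds KEAP1, had a log2 ratio of −0.38 and Mafk, another small MAF protein, of −0.33.

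In the list of 14 thioredoxin and peroxiredoxin genes 1 was at least 2-fold lower in PCBs. This was Sesn2, a stress-induced sestrin, at 7039 in Flk1+ MPCs, 6464 in sfPCBs and 2932 in PCBs, against 3326 in M+CMs. It was high in the precursors and sfPCBs and low in PCBs and M+CMs, with a log2 ratio of −1.14 between PCBs and sfPCBs. Txnip, which binds and inhibits thioredoxin, had 260.1, 299.1, 484.9 and 3218, a log2 ratio of 0.70, and was highest in M+CMs. Prdx3, the peroxiredoxin of mitochondria, had 4413, 5952, 7309 and 18696, highest in M+CMs as Sod2 was, with log2 ratios of 0.30 for PCBs against sfPCBs and 1.36 for M+CMs against PCBs.

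In the list of 15 glutathione genes 1 was at least 2-fold higher and 1 lower in PCBs. Mgst1, a membrane-bound glutathione transferase, had scaled signals of 47.2 in Flk1+ MPCs, 4240 in sfPCBs and 12665 in PCBs, and 1507 in M+CMs. It was highest in PCBs, with a log2 ratio against sfPCBs of 1.58 (error 0.14) and both probes at 1.52 or more. Slc7a11, the cystine importer that feeds glutathione synthesis, had 32.4 in sfPCBs and was not well above background on the other arrays, and was at least 2.09-fold lower in PCBs. Gsta4, which conjugates lipid peroxidation products, had 934.2, 845.6, 1613 and 1146, a log2 ratio of 0.93, just inside 2-fold.

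In the heme and iron list 1 of 6 was at least 2-fold lower in PCBs. This was Slc40a1, the iron exporter ferroportin, with scaled signals of 682.7 in Flk1+ MPCs, 1262 in sfPCBs and 308.8 in PCBs, against 3192 in M+CMs. It was lowest in PCBs, with a log2 ratio of −2.03 (error 0.20) against sfPCBs, and highest in M+CMs. Blvra, the biliverdin reductase that acts after Hmox1, had a log2 ratio of −0.41, and Ftl1, the ferritin light chain, of 0.21.

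In the list of 6 genes of NADPH supply none was 2-fold apart between PCBs and sfPCBs. Me1, malic enzyme, was nearest, with scaled signals of 1626 in Flk1+ MPCs, 9772 in sfPCBs and 4977 in PCBs, and 4272 in M+CMs and a log2 ratio of −0.97, at −1.26 to −0.78 over its probes. Idh1, cytosolic isocitrate dehydrogenase, had a log2 ratio of −0.44 and Taldo1, transaldolase, of 0.38. For M+CMs against PCBs 3 of the 6 were at least 2-fold lower and 0 higher, with a median log2 ratio of −0.89, where 15.4% of all probes were lower and 20.5% higher with a median of 0.15. The 3 were G6pdx, Pgd and Tkt, enzymes of the pentose phosphate pathway, with log2 ratios of −2.23, −1.07 and −2.31, named after their values were seen. Taldo1, of the same pathway, was nearly level, with a log2 ratio of −0.05. Not all lists fell in M+CMs. Of 14 thioredoxin and peroxiredoxin genes, 5 were at least 2-fold higher and 2 lower, with a median of 0.36. Of 14 glutathione genes compared, 2 were higher and 2 lower. Also named after their values were seen, these were Gpx3 (2.87) and Glrx (2.82), and Mgst1 (−3.07) and Gpx7 (−1.125).

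In the list of superoxide sources and the copper chaperone of Sod1, 5 of 6 genes could be compared and none was 2-fold apart between PCBs and sfPCBs. Cyba, a subunit of the superoxide-making NADPH oxidases, had a log2 ratio of −0.95 (error 0.14), with scaled signals of 9129 in sfPCBs and 4732 in PCBs. Xdh, xanthine dehydrogenase, whose oxidase form makes superoxide, had 1251 in sfPCBs and 1997 in PCBs and was not well above background in Flk1+ MPCs and M+CMs. Like Sod3 it was high on the day 5.5 arrays, but with the higher signal in PCBs (a log2 ratio of 0.67 against sfPCBs), and its PCB signal was at least 125.3-fold that of Flk1+ MPCs. Nox4, a hydrogen peroxide-making oxidase, had a log2 ratio of −0.67 between PCBs and sfPCBs, at −0.996 to −0.346 over its probes.

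**Figure D4:**
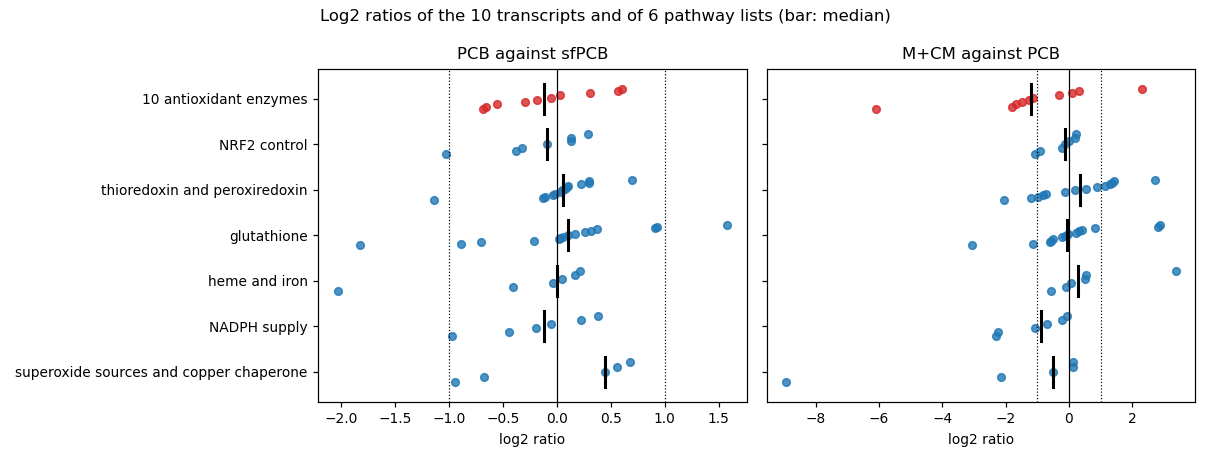
Log2 ratios of the 10 antioxidant enzymes (red) and of the genes of 6 pathway lists (blue), each point 1 gene, with black bars for medians and dotted lines at 2-fold, for PCBs against sfPCBs (left) and M+CMs against PCBs (right). The medians of the left panel lie between −0.12 and 0.45. On the right they run from −1.20 for the 10 enzymes and −0.89 for the NADPH supply genes to 0.36 for the thioredoxin and peroxiredoxin genes.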

How the data were processed

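Cy3-labelled RNA of 4 populations was hybridized to 1-colour Agilent arrays, 1 per population, grouped by sample title. The authors deposited the intensities of each spot as written by the scanner software (Feature Extraction 11.5.1.1): a processed signal (background-subtracted, with an error estimate), median intensities of the spot and of its local background, and flags. Per the file headers the design is annotated on mm9, and the spots carry identifiers without symbols or positions. No normalization between arrays had been applied. The authors also deposited a table of log2 values, whose scale and direction were checked against the scanner values: it held the unscaled log2 processed signal, with column medians of 6.88, 7.40, 7.18 and 7.16 in Flk1+ MPCs, sfPCBs, PCBs and M+CMs and at least 99.66% of values within 0.01.

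Control and outlier-flagged spots (87 to 144 per array) were left out. Each array's 75th percentile was brought to 2198.4, and log2 values were averaged over repeated spots, then over the detected probes of a transcript. A probe was detected when at least 0.5 of its spots were called well above background, and was compared when detected on at least 1 of the arrays. Where 1 array was not well above background, a fold given as "at least" was taken against the lowest signal well above background on that array (15.1 to 15.9). The Flk1+ MPC signal of Sod3, at 18.4, lay above that value, so its folds are plain ratios and not bounds. The number of arrays limits the precision. Symbols were matched by accession to the RefSeq table of GRCm38.p6 (10 of 10 members). The members and gene lists were chosen with earlier results of these data known. Named besides the members were the 3 genes of each pathway list with the largest absolute log2 ratio between PCBs and sfPCBs and the 3 transcripts nearest to the member of widest range. The counting step was tested on simulated arrays with spot noise only.

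The alternatives were no scaling, quantile normalization, normexp background correction with quantile normalization, an offset of 50, detection on both arrays, no detection filter, saturated spots left out, the brightest probe alone and the deposited log2 table. The normexp correction started from median spot and median background intensities. Quantile normalization and normexp were run with limma 3.58.1 in R 4.3.3, and all other steps with numpy 2.4.6, pandas 2.3.3 and matplotlib 3.10.9 in Python 3.11.15.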

Additional observations from a re-analysis of the deposited data

How the results depend on the processing

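No paired analysis was possible because each population had 1 array. Under the 9 alternatives the count of members at least 2-fold apart between PCBs and sfPCBs stayed at 0, with a median log2 ratio between −0.27 and −0.09. For sfPCBs against Flk1+ MPCs the count was 2, but 4 without scaling and 1 with detection required on both arrays, which leaves out Sod3, and the median went from 0.51 to 0.85 without scaling. For M+CMs against PCBs the count was 7, or 8 with the brightest probe of each transcript, and the median went from −1.20 to −1.41 without scaling.

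Leaving out the scaling moved the median of all probes by −0.15 for PCBs against sfPCBs, 0.18 and 0.34 for PCBs and sfPCBs against Flk1+ MPCs, and −0.21 for M+CMs against PCBs. It turned 6.13% higher and 7.36% lower into 4.98% and 9.07% for the first, 12.8% and 12.1% into 15.0% and 9.17% for the second, 13.1% and 12.6% into 17.6% and 7.28% for the third, and 20.5% and 15.4% into 16.2% and 19.4% for the last. Normexp correction and the offset of 50 lowered the share of all probes at least 2-fold apart, from 13.5% to 6.39% and 6.81% for PCBs against sfPCBs, from 24.9% to 14.0% and 15.6% for PCBs against Flk1+ MPCs, from 25.7% to 14.5% and 15.6% for sfPCBs against Flk1+ MPCs, and from 36.0% to 23.6% and 25.3% for M+CMs against PCBs.

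Leaving out saturated spots and changing the detection filter could not move the values of single members. The brightest probe could move only Hmox1 and Cat, the members with 2 probes, and the deposited table held the same processed signal. Of 240 values of single members under the other 6 alternatives, these included, 189 moved by less than their error, 23 became smaller and 28 larger. Many of the 189 were thus fixed in advance. The sign changed in 12 of the 240, all of them ratios of at most 0.27 in size. Low signals limit the folds of Nqo1 and Sod3 against Flk1+ MPCs.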
